A study of Mus musculus with 912 samples.

Results

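The data describe 8 genes of neuronal calcium signalling, Calb1, Calb2, Pvalb, Calm2, Calm3, Pcp4, Nrgn and Hpca, in single nuclei of the mouse hippocampus. They are 8 of the 42772 genes with counts, were chosen by name and were all present in the count and log2(TPM+1) tables, TPM being RSEM's length-corrected unit of abundance. Each nucleus was sorted by flow cytometry and made into its own SmartSeq2 library, and 783 of 912 nuclei were used. Nuclei came from C57BL6 female mice aged 7.75 to 9 weeks that stayed in the home cage (HC) or explored an unfamiliar environment (NE) for 15 min. The first cohort (303 nuclei, 11 animals) was taken from HC or 1 h after NE, was stained for NEUN, PROX1, CTIP2 and FOS, and carries the authors' predicted cell types: dentate granule (DG), CA1, CA3, subiculum (Sub), VIP, Pvalb and Ivy interneurons, and Th, which stands for thalamus. The later cohort (480 nuclei, 18 animals) holds PROX1+CTIP2+ DG nuclei that were all ARC+. Its groups are FOS− nuclei 4 h or 5 h after NE, and FOS+ and FOS− nuclei taken 1 h after a return to the same environment (A>A) or a visit to a different one (A>C), with 4 h between the visits. The model has limits: nuclei hold nuclear RNA, FOS+ and FOS− are sort gates on protein, and both 1 h DG groups came from a single mouse.

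Calcium entering a neuron meets buffers, which bind it, and sensors, which change shape and act on other proteins. Calbindin (Calb1), calretinin (Calb2) and parvalbumin (Pvalb) are EF-hand proteins that serve mainly as buffers and are classic markers of hippocampal neuron classes: calbindin of granule cells and some CA1 pyramidal cells, calretinin of some interneurons, and parvalbumin of fast-spiking interneurons. Calmodulin, the protein of Calm2 and Calm3, is the general sensor and activates kinases, a phosphatase and adenylyl cyclases. Pcp4 (PEP-19) and neurogranin (Nrgn) bind calmodulin through an IQ motif, and hippocalcin (Hpca) is a sensor of the visinin-like family that moves to membranes when it binds calcium.

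Calm2 and Calm3 are shown at the sequence level because they are reported separately although they encode the same protein. Their coding sequences have 447 bases, 149 codons with the stop, and identical translations. Calm2 and Calm3 differ at 78 bases (82.55% identity) and share no run longer than 17 bases, so a 50-base read inside the coding part can be placed in 1 of them. The window below covers 60 bases of the coding sequence, written 5′ to 3′ from the reference genome (GRCm38) with the bases that differ between both genes in capitals. It lies at chr17:87435873-87435932 on the minus strand for Calm2 and chr7:16917667-16917726 on the minus strand for Calm3.
Calm2: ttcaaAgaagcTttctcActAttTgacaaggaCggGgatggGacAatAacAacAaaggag
Calm3: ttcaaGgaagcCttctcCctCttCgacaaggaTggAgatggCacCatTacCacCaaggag
Each of the 12 capitals is the last base of a codon, and no 50-base stretch of any transcript was shared between Calm2 and Calm3.

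The members lie on 7 chromosomes of GRCm38 by the GENCODE vM21 annotation: Calb1 at chr4:15881264-15908064, Calb2 at chr8:110137502-110168210, Pvalb at chr15:78191114-78206400, Calm2 at chr17:87433412-87446935, Calm3 at chr7:16915379-16924114, Pcp4 at chr16:96467606-96525793, Nrgn at chr9:37544492-37552904 and Hpca at chr4:129111570-129122036. For Pcp4, 17.5% of the 50-base stretches of its transcripts also occur in transcripts of Igsf5, and for Calm2 9.72% occur in 3 other annotated genes (Gm14480, Gm15720 and Gm7308). The share was 2.52% for Calm3 and 0.197% for Hpca, and no stretch was shared for Calb1, Calb2, Pvalb or Nrgn. Reads from the shared stretches cannot be assigned with certainty.

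The total count of a nucleus ranged from 142275 to 5885216 (median 1251690). Median totals of the DG groups ranged from 426841 in the 5 h nuclei to 2469299 in the 4 h nuclei. The marker lists of DG, CA1, CA3, VIP, Ivy and Th had their highest mean in the type they stand for, whereas the subiculum list was higher in Th (3.78) than in Sub nuclei (2.90). The mean log2(TPM+1) of the VIP list (Vip, Htr3a, Adarb2) was 8.53 in VIP nuclei, that of the DG list (Prox1, C1ql2, Dsp, Dock10) was 4.19 in DG nuclei, and the GABAergic list (Gad1, Gad2, Slc32a1) was 1.39 in DG nuclei with Slc32a1 at 0. The list for Pvalb interneurons without Pvalb itself (Tac1, Kcnc1, Erbb4) did not set that type apart, at 4.10 in Pvalb nuclei and 4.83 in Ivy nuclei. Of the 66 VIP nuclei, 61 came from the PROX1+CTIP2− gate and 60 of these had a Vip count, whereas 0 of the 5 VIP nuclei from other gates had one, although their Gad2 levels lay between 7.37 and 9.82. A single DG nucleus of an HC mouse came from the PROX1−CTIP2+ gate and had a Prox1 level of 0.38 with C1ql2 and Calb1 at 0.

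Across cell types each member had its own order (the plot of member levels by predicted type). Levels are given as the mean log2(TPM+1) over the nuclei of an animal, then as the mean ± SD over animals with at least 2 nuclei, FOS+ and FOS− nuclei together. The cell types were predicted from RNA and Calb1 was among the genes the authors used for prediction, so these levels are a description without a test. TPM corrects for transcript length, so levels may also be set beside each other between genes.

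**Figure D1:**
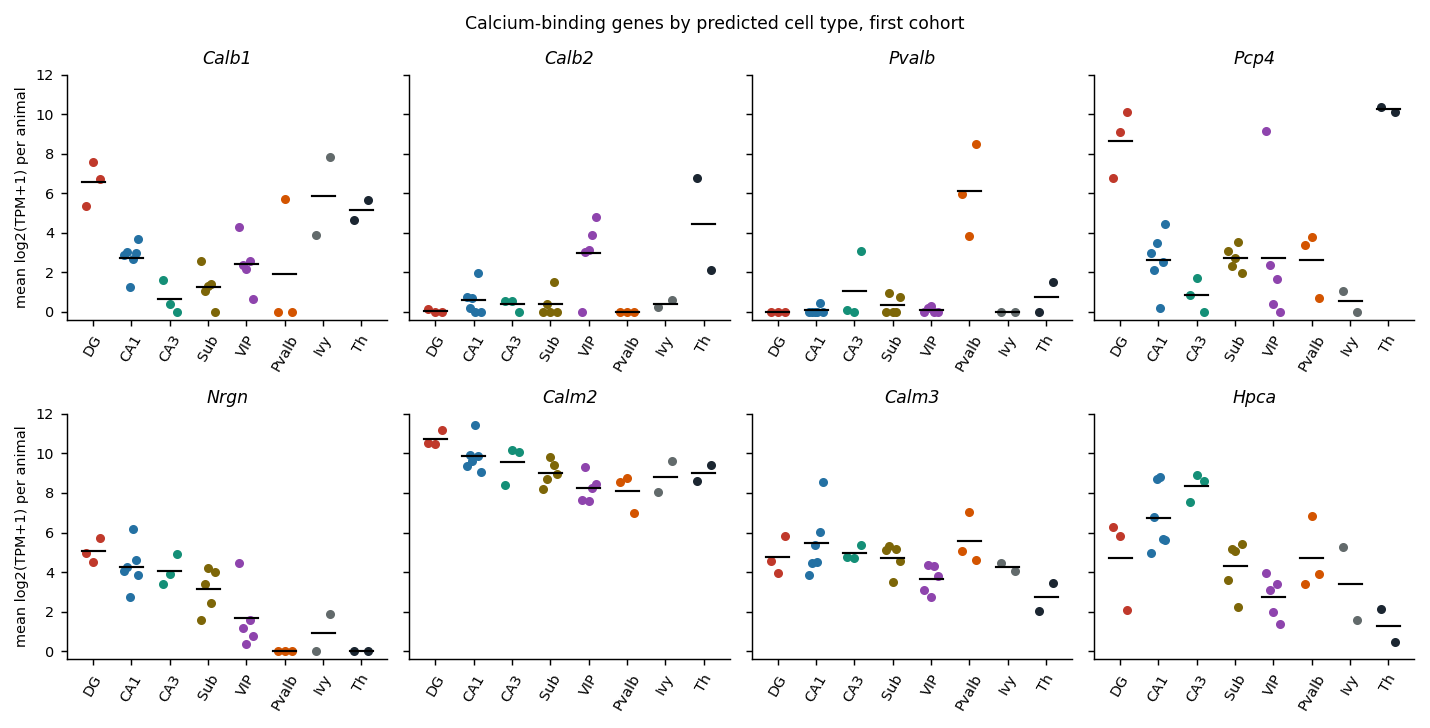
Mean log2(TPM+1) of the 8 genes (y axes, 1 panel a gene) in the 8 predicted cell types of the first cohort (x axes); each point is an animal with at least 2 nuclei and each bar the mean over animals. Calb1 and Pcp4 are high in DG and Th, Calb2 in Th and VIP, Pvalb in the Pvalb type and Hpca in CA3, whereas Calm2 is between 7.01 and 11.42 in every animal.

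Among the buffers, Calb1 was highest in DG, at 7.59 and 6.70 in HC mice 6 and 7 and 5.35 in NE mouse 3 (6.55 ± 1.13, n = 3 animals), with a count in 83.9% of DG nuclei on average. It followed at 5.84 ± 2.78 in Ivy (n = 2) and 5.17 ± 0.73 in Th (n = 2). CA1 stood at 2.75 ± 0.82 (n = 6, from 1.24 to 3.71) and VIP at 2.41 ± 1.29 (n = 5, from 0.64 to 4.27). DG, Ivy and Th overlapped in their animals, and only the step from Th down to CA1 separated all animals of neighbouring types. CA3 was lowest at 0.68 ± 0.85 (n = 3), with Calb1 counts in 3 of 26 nuclei, and Sub was at 1.27 ± 0.92 (n = 5).

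Calb1 in CA1 was a mixture of nuclei with and without a count, 41 of 73. After thinning every nucleus to 100000 counts the share fell from 55.3% to 36.2% on average over animals. The positive CA1 nuclei had a mean level of 5.10, below the 7.78 of positive DG nuclei. CA1 nuclei thus differed from DG nuclei both in how many had Calb1 counts and in the level where it was present, as measured per animal and without a test.

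Calb2 was highest in Th, at 6.77 and 2.12 in the 2 animals, and in VIP, at 2.97 ± 1.80 (n = 5, from 0 to 4.78). The other types had means of 0.61 or less. In DG a single nucleus of 78 had a count, and in Pvalb nuclei the share was 0 of 8, which allows up to 37.5%. Pvalb was highest in the type named for it, at 5.97, 3.85 and 8.48 in 3 animals, all above the highest CA3 animal (3.10), and it had counts in 0 of 78 DG nuclei, which allows a share of up to 3.85% by counting error alone. The type rests on 8 nuclei.

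Most VIP nuclei with a Calb1 or Calb2 count, of any size, had it for a single gene. Of the 66 VIP nuclei, 22 had counts for Calb1 alone, 24 for Calb2 alone, 7 for both and 13 for neither. DG nuclei had 62 with Calb1 alone, 1 with Calb2 alone and 15 with neither, and the 7 Th nuclei had 3 with both. Depth and the number of animals limit the VIP split, since the median total was 344915 in FOS− VIP nuclei of the 1 h group, and nuclei of a mouse are not replicates. Without the 5 VIP nuclei from other gates the level of Calb1 was 1.89 ± 0.83 and that of Calb2 3.70 ± 0.80, a selection made after the values were seen.

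**Figure D2:**
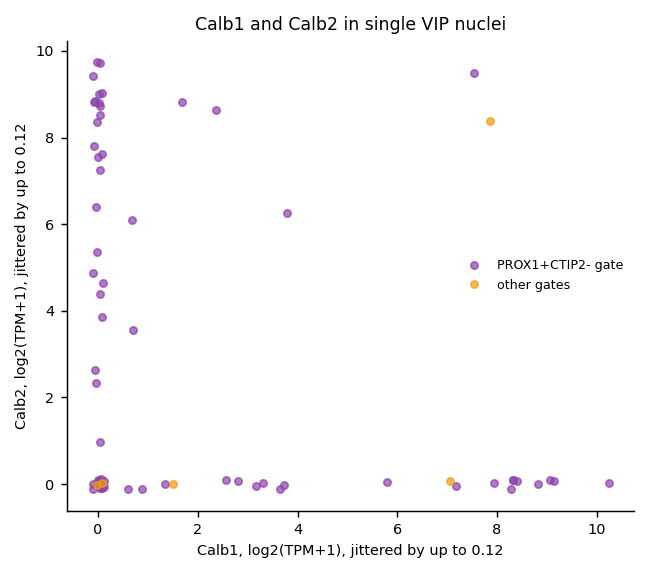
Calb1 (x axis) against Calb2 (y axis), both log2(TPM+1), in the 66 VIP nuclei; each point is a nucleus, moved slightly at random so that points at 0 can be seen. Most positive nuclei lie along an axis: 22 have Calb1 alone, 24 Calb2 alone and 7 both.

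Calm2 was the most abundant member in every type but Th, with a level of 10.72 ± 0.38 in DG (n = 3), 9.88 ± 0.82 in CA1 (n = 6), 9.55 ± 0.99 in CA3, 9.01 ± 0.61 in Sub, 8.26 ± 0.70 in VIP and 8.12 ± 0.97 in Pvalb nuclei. Calm2 stood at 8.82 ± 1.11 in Ivy and at 9.00 ± 0.59 in Th, there below Pcp4 (10.23 ± 0.15). It had a count in at least 97.9% of nuclei of every type on average. No neighbouring types in this order were separated in all animals. Calm3 was lower in every type, from 5.57 ± 1.27 in Pvalb and 5.46 ± 1.69 in CA1 to 3.66 ± 0.73 in VIP and 2.76 ± 0.99 in Th, again with overlap between all neighbours.

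The calmodulin-binding genes Pcp4 and Nrgn differed from each other in their order. Pcp4 was highest in Th, at 10.34 and 10.13, and in DG, at 9.09 and 10.11 in HC mice 6 and 7 and 6.79 in NE mouse 3. Both Th animals lay above all DG animals, and all DG animals lay above the highest Sub animal (3.54). In CA1 the level was 2.62 ± 1.43 (n = 6), and in CA3 0.85 ± 0.85 (n = 3). In VIP the mean of 2.71 ± 3.72 rested on mouse 2, whose 2 nuclei came from the PROX1−CTIP2+ gate and had Pcp4 at 8.66 and 9.63; with the PROX1+CTIP2− gate alone it was 1.13 ± 1.11.

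Nrgn, in contrast, was shared by all hippocampal glutamatergic types. It stood at 5.06 ± 0.61 in DG, 4.28 ± 1.12 in CA1, 4.07 ± 0.77 in CA3 and 3.13 ± 1.11 in Sub. It was lower in VIP (1.67 ± 1.63; 1.03 ± 0.63 in the PROX1+CTIP2− gate alone) and Ivy (0.94 ± 1.33), and no count was seen in 8 Pvalb nuclei or 7 Th nuclei, which allows shares of up to 37.5% and 42.9%. Th nuclei thus had the highest Pcp4 and no Nrgn count. In CA1, 51 of 73 nuclei had both Nrgn and Hpca, and 20 of 26 CA3 nuclei did.

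Hpca was highest in CA3, at 7.53, 8.90 and 8.61 in 3 animals (8.35 ± 0.72), with a count in 97.4% of nuclei. CA1 followed at 6.76 ± 1.65 (n = 6, from 4.95 to 8.83). DG varied widely, at 5.82, 2.10 and 6.28 in its 3 animals (4.74 ± 2.29), and the low animal, HC mouse 7, gave 5 nuclei. VIP was at 2.76 ± 1.06 and Th at 1.28 ± 1.17. No neighbours in this order were separated in all animals.

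The sort gates give groups defined by protein rather than by RNA, and allow a test that the cell type prediction did not touch. FOS− nuclei of the first cohort were summed per animal in each gate: PROX1+CTIP2+ (DG, 3 sums), PROX1−CTIP2+ (mostly CA1, 2 sums), PROX1+CTIP2− (mostly VIP with Ivy and Th, 4 sums) and PROX1−CTIP2− (a mixture of CA3, CA1, Sub and interneurons, 4 sums). Values are counts scaled by TMM library size (CPM), and the test was edgeR's quasi-likelihood test with an exposure term. The date codes in the labels differ between gates, so gate and date cannot be told apart.

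Calb1 marked the PROX1+CTIP2+ gate. The sums were 423, 841 and 779 CPM in the PROX1+CTIP2+ gate, 74.9 and 36.1 CPM in the PROX1−CTIP2+ gate, 47.6, 114, 96.0 and 94.5 CPM in the PROX1+CTIP2− gate, and 40.0 to 77.4 CPM in the PROX1−CTIP2− gate. Every PROX1+CTIP2+ sum was above every sum of the other gates. Calb1 was higher in PROX1+CTIP2+ than in PROX1+CTIP2− nuclei by 2.96 ± 0.46 on the log2 scale (SE; 95% interval 2.07 to 3.85; adjusted p = 0.0163). Against PROX1−CTIP2+ the difference was 3.63 ± 0.62, with an adjusted p of 0.0707 in edgeR, 1.99e-08 in DESeq2 and 0.00086 in limma on the mean log2(TPM+1).

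Nrgn separated the gates in another way. It had 112, 121 and 152 CPM in PROX1+CTIP2+, 44.3 and 72.0 CPM in PROX1−CTIP2+, 20.1 to 21.8 CPM in PROX1−CTIP2− and 5.03, 5.31, 16.9 and 2.19 CPM in PROX1+CTIP2− sums. The gates did not overlap. Nrgn was higher in PROX1+CTIP2+ than in PROX1+CTIP2− nuclei by 4.09 ± 0.69 (95% interval 2.74 to 5.44; edgeR adjusted p = 0.0244).

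Calb1 and Nrgn were the 2 members of 8 called in PROX1+CTIP2+ against PROX1+CTIP2−, where 0.919% of all 19259 genes tested were called. The median difference was 2.25 over the members and −0.07 over all genes. DESeq2 called 7 members and limma 5, against 12.3% and 6.32% of all genes. Both edgeR calls depended on single animals: Calb1 lost its call without HC mouse 4 (adjusted p = 0.0786), 6 (0.063) or 7 (0.0563), with differences of 2.75 to 3.32 over all omissions, and Nrgn lost it without NE mouse 3, 4 or 5 or HC mouse 6 or 7 (adjusted p from 0.0598 to 0.0979), with differences of 3.77 to 4.99.

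Pcp4, Hpca, Calm2 and Calm3 had intervals above 0 in this comparison but did not pass the threshold in edgeR. Pcp4 had 306, 661 and 1169 CPM in PROX1+CTIP2+ and 54.2, 18.2, 49.4 and 310 CPM in PROX1+CTIP2− sums, a difference of 2.69 ± 0.93 (adjusted p = 0.232). The highest PROX1+CTIP2− sum, from HC mouse 5 whose nuclei include 5 of the Th type, overlapped the lowest PROX1+CTIP2+ sum. Hpca had 339, 378 and 665 CPM against 106, 40.5, 81.7 and 4.82 CPM, a difference of 3.08 ± 0.93 (adjusted p = 0.173). The 665 CPM came from HC mouse 7, where 1 of 5 nuclei had an Hpca count. Its mean Hpca log2(TPM+1) was 2.10, below the 3.00, 2.30 and 3.45 of PROX1+CTIP2− animals but above that of HC mouse 5. The other PROX1+CTIP2+ means, 6.68 and 5.82, lay above all of these. A single nucleus also held 78.8% of the Pcp4 counts of HC mouse 7, whose mean Pcp4 level was 10.11. Calm2 differed by 1.81 ± 0.47 (adjusted p = 0.115) and Calm3 by 1.35 ± 0.42 (0.195). DESeq2 called all 4, with adjusted p of 0.028, 0.0063, 0.010 and 0.0034 for Pcp4, Hpca, Calm2 and Calm3.

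Calb2 was highest in the PROX1+CTIP2− gate. Its sums were 173, 168, 127 and 91.4 CPM there, from 417 to 1270 counts. Every PROX1+CTIP2+ and PROX1−CTIP2+ sum had 0 counts. In the PROX1−CTIP2− gate 5 of 56 nuclei had a count, and the level was 0.64 ± 0.74 against 3.55 ± 0.62 in PROX1+CTIP2−. With a floor of 3 counts for each sum, Calb2 was at least 117-fold higher than in PROX1+CTIP2+ and at least 486-fold higher than in PROX1−CTIP2+ nuclei. The edgeR test did not pass (adjusted p = 0.089 and 0.306), whereas limma on mean log2(TPM+1) gave 0.00062 and 0.0038. Pvalb had 0 counts in both CTIP2+ gates, at most 10.1 CPM in PROX1+CTIP2− and up to 60.6 CPM in PROX1−CTIP2− sums.

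Between the 2 CTIP2+ gates, and between PROX1+CTIP2− and PROX1−CTIP2+, edgeR called 0 of 8 members, with 0.145% and 0.0312% of all genes called and 3 and 4 members at an unadjusted p below 0.05. DESeq2 called 2 and 3 members there (6.82% and 6.68% of genes) and limma 2 and 3 (1.5% and 2.19%). Without the exposure term edgeR called 1 member, Calb1, in the first comparison, with 0.208% of genes called. Calm3 (1.22 ± 0.53) and Pcp4 (2.87 ± 1.29) had intervals above 0 in PROX1+CTIP2+ against PROX1−CTIP2+, while Hpca (−0.47 ± 1.02), Calm2 (0.41 ± 0.54) and Nrgn (1.10 ± 0.79) had intervals across 0. Pcp4 had a limma difference of 6.63 ± 1.08 (adjusted p = 0.0085) in this comparison, a scale on which a nucleus at 0 weighs as much as any other. Against PROX1−CTIP2+, PROX1+CTIP2− nuclei had lower Nrgn (−2.99 ± 0.71, adjusted p = 0.221) and Hpca (−3.55 ± 0.98, 0.306), which DESeq2 called (0.00034 and 0.014).

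The DG groups were compared next, from HC through 1 h, 4 h and 5 h and after the second visit (the plot of 6 members by DG group). All groups were fitted together, 24405 genes were tested, and the HC group (2 sums, mice 6 and 7) is shared by 4 comparisons. The later groups differ from HC in cohort, staining and date as well as in time, and these cannot be told apart.

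**Figure D3:**
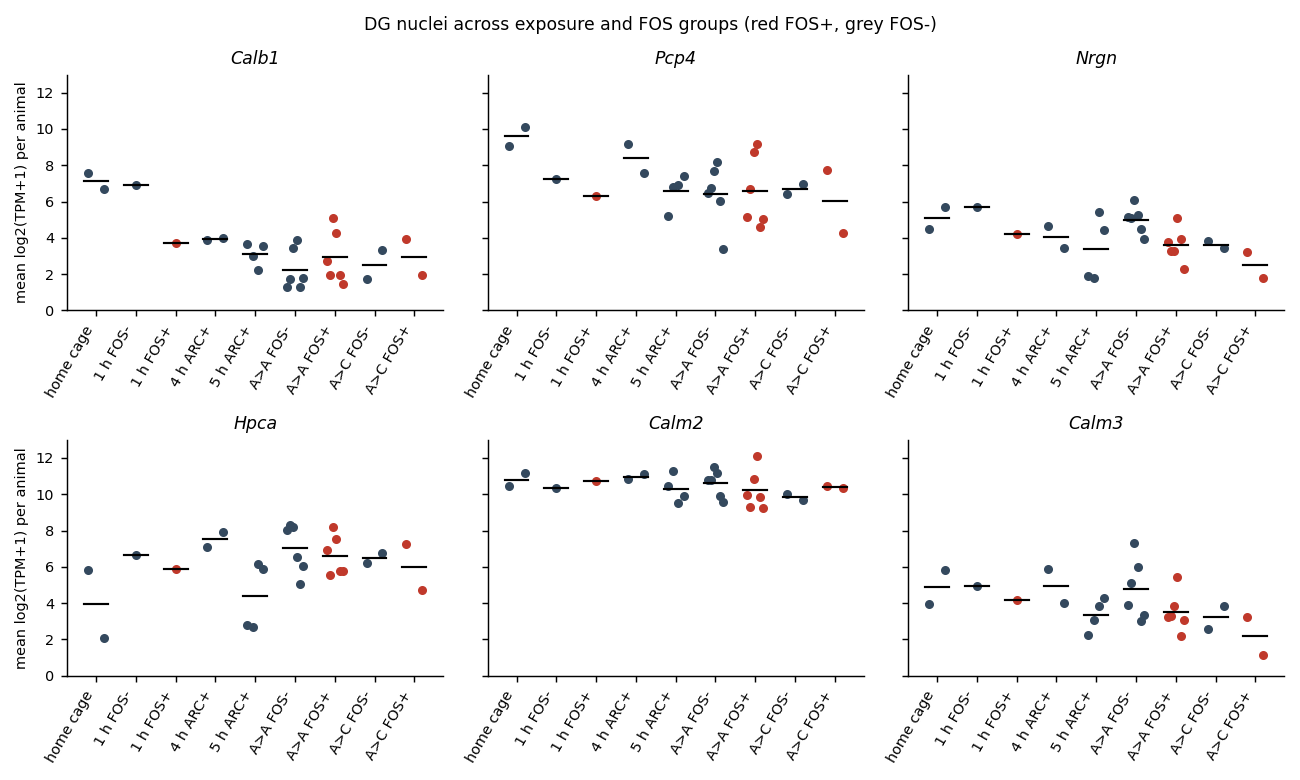
Mean log2(TPM+1) of 6 members (y axes, 1 panel a gene) in 9 groups of DG nuclei (x axes); each point is an animal, red for FOS+ and grey for FOS− nuclei. Calb1 is highest in HC and in FOS− nuclei at 1 h, from 6.70 to 7.59, and at most 5.10 in every other animal, whereas Calm2 stays between 9.26 and 12.11.

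Calb1 per nucleus was high in HC nuclei and in FOS− nuclei at 1 h, and lower in all other DG groups. HC mice 6 and 7 had 7.59 and 6.70, and in NE mouse 3 FOS− nuclei had 6.94 and FOS+ nuclei 3.71. The 4 h mice had 3.88 and 3.98, and the 5 h mice 3.66, 3.00, 2.21 and 3.57. In A>A, FOS+ nuclei had 1.46 to 5.10 (median 2.36, 6 mice) and FOS− nuclei 1.28 to 3.85 (median 1.77, 6 mice), and A>C mice had 3.93 and 1.97 in FOS+ and 1.71 and 3.36 in FOS− nuclei. The 3 highest values are thus the HC and 1 h FOS− ones, with no overlap with any other DG group.

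The groups differed in the share of nuclei with a high Calb1 level. In HC, 19 of 25 nuclei were above a level of 6 (76.0%, exact 95% interval 54.9 to 90.6). The 25 include 1 nucleus of HC mouse 3 (PROX1−CTIP2+ gate) and 1 of HC mouse 5 (PROX1+CTIP2− gate), both with Calb1 at 0. In FOS− nuclei at 1 h, 22 of 27 were above 6 (81.5%, 61.9 to 93.7). In FOS+ nuclei at 1 h, 10 of 26 were (38.5%, 20.2 to 59.4), and 9 nuclei were at 0. Later groups had 39.7% at 4 h, 35.6% at 5 h, 30.8% and 21.7% in A>A FOS+ and FOS−, and 35.4% and 28.3% in A>C FOS+ and FOS−. Counts of any size gave another order: 21 of 25 nuclei had one in HC (84.0%), 24 of 27 and 17 of 26 in FOS− and FOS+ nuclei at 1 h (88.9% and 65.4%), 55 of 68 at 4 h (80.9%) and 28 of 59 at 5 h (47.5%). The 4 h nuclei, which were the deepest, had a count almost as often as HC nuclei, but their median level was 1.41 against 8.49. The shares thinned to 100000 counts are means over animals with at least 2 nuclei, unlike the pooled shares above. They were near 85% in HC and 84% in FOS− nuclei at 1 h, and 47% in FOS+ nuclei at 1 h, 50% at 4 h and 39% at 5 h. HC mice 6 and 7 had 94.4% and 80.0% before thinning and 89.7% and 80.0% after it. The intervals cover counting error over nuclei, not the spread between mice.

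**Figure D4:**
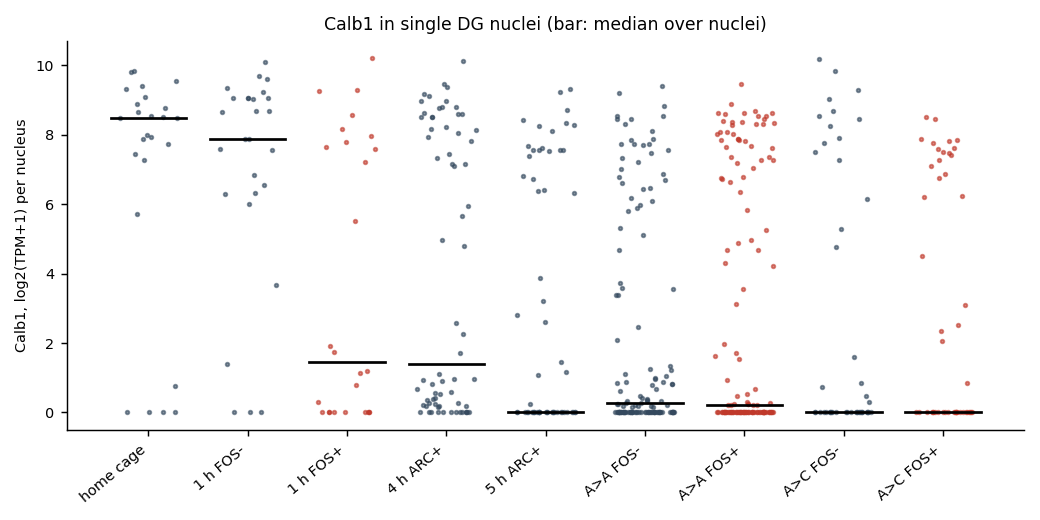
Calb1 as log2(TPM+1) (y axis) in each DG nucleus of 9 groups (x axis); each point is a nucleus and each bar the group median. Nuclei above 6 make up 76.0% of HC and 81.5% of FOS− nuclei at 1 h and between 21.7% and 39.7% of the other groups, and nuclei at 0 are found in every group.

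The summed counts showed a smaller difference. Calb1 sums were 672 and 609 CPM in HC, 343 in FOS− and 371 in FOS+ nuclei at 1 h, 337 and 460 at 4 h, and 278, 281, 149 and 156 at 5 h. FOS+ and FOS− nuclei at 1 h were thus close in the sum (0.11 ± 1.35, 95% interval −2.53 to 2.76) while differing by 3.23 in the mean log2 level, and the HC sum of mouse 7 took 80.8% of its Calb1 counts from a single nucleus. No comparison of Calb1 passed in edgeR: 4 h against HC was −0.69 ± 0.96 and 5 h against HC −1.57 ± 0.79 (adjusted p = 0.511). On the mean log2(TPM+1), limma gave −4.04 ± 0.90 at 5 h (adjusted p = 0.0061), −3.22 ± 1.04 at 4 h (0.085), −3.44 ± 1.27 for FOS+ at 1 h against HC (0.14) and −3.23 ± 1.47 for FOS+ against FOS− at 1 h (0.42).

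Of 2 other marker lists over HC, 1 h, 4 h and 5 h, the DG list was higher in the groups with high Calb1. The GABAergic list did not follow these groups and was highest in FOS+ nuclei at 1 h. The mean of the DG marker list was 4.44 in HC, 4.90 in FOS− and 3.21 in FOS+ nuclei at 1 h, 3.28 at 4 h and 3.39 at 5 h. The GABAergic list was 0.885, 1.23, 2.04, 1.21 and 1.15 in the same groups, with Slc32a1 at 0 in the HC and 1 h groups. The part of either in the Calb1 levels was not tested.

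Pcp4 also was high in HC, at 9.09 and 10.11, against 7.25 in FOS− and 6.31 in FOS+ nuclei at 1 h, 9.17 and 7.60 at 4 h and 5.19 to 7.39 at 5 h. Unlike Calb1 it stayed above a level of 6 in most nuclei of every group, from 60.4% to 88.0%. Pcp4 at 5 h against HC was −1.70 ± 0.59 in edgeR (adjusted p = 0.338) and −1.89 ± 0.64 in DESeq2 (0.034). At 4 h the difference was −0.83 ± 0.71.

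Nrgn and Hpca split the 5 h mice in pairs. Nrgn was 1.91 and 1.77 in mice 22 and 23 and 5.41 and 4.43 in mice 8 and 9, and Hpca was 2.78 and 2.69 against 6.18 and 5.88. Mice 22 and 23 gave 10 and 6 nuclei and carry other date codes in the labels than mice 8 and 9. HC mice had 4.51 and 5.71 for Nrgn and 5.82 and 2.10 for Hpca, which overlap the 5 h mice in both genes. The edgeR differences at 5 h were −1.41 ± 0.62 for Nrgn (adjusted p = 0.464) and −1.20 ± 0.59 for Hpca (0.497).

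Calm2 passed the test in no DG comparison, and each of its differences was within 0.87 of 0 on the log2 scale with an interval across 0. Calm3 was more variable between animals, from 1.12 to 7.33. Against HC, edgeR called 0 of 8 members in any of the 4 DG groups, with 0.27% of genes called for FOS+ at 1 h, 0.0041% for FOS− at 1 h, 0.246% at 4 h and 0.262% at 5 h. At an unadjusted p below 0.05 there were 2 members at 5 h and none in the other 3 comparisons. DESeq2 called 7.28%, 2.52%, 4.14% and 8.14% of genes in the 4 comparisons and limma 3.99%, 0.0525%, 3.86% and 11.1%. Each called 1 member at 5 h, Pcp4 and Calb1 respectively, and none elsewhere.

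FOS+ and FOS− nuclei were then compared within each cell type (the plot of FOS fold changes). At 1 h in DG, edgeR called 0 of 8 members, and 0.0451% of all genes were called (11 of 24405). DESeq2 called 4.33% and limma 0.796% of genes, again with 0 members, and 0 members had an unadjusted p below 0.05. Besides Calb1, Nrgn was lower in FOS+ nuclei in the mean level (4.20 against 5.67) with an edgeR difference of −0.92 ± 1.06, and Pcp4 differed by 0.04 ± 0.99. Both groups came from mouse 3, so the spread was taken from the other DG groups.

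**Figure D5:**
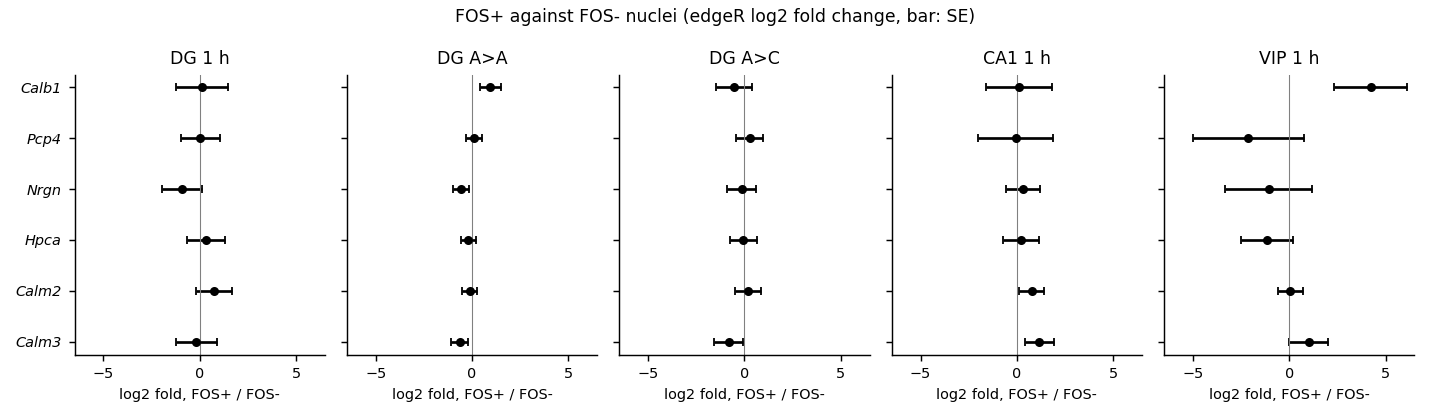
The edgeR log2 difference FOS+ minus FOS− (x axis, points, with SE as bars) for 6 members in DG at 1 h, A>A and A>C, in CA1 and in VIP. None passes an adjusted p of 0.05, and the largest, Calb1 in VIP, is 4.22 ± 1.90.

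After the return to the same environment (A>A), 6 FOS+ and 6 FOS− sums were compared, and mice 24 to 27 gave both. Nrgn was lower in FOS+ nuclei in 4 of 4 of these mice, at 3.29, 5.10, 3.93 and 2.28 against 6.07, 5.28, 4.50 and 3.92. Calm3 was also lower in 4 of 4, at 3.85, 5.43, 2.21 and 3.08 against 7.33, 6.00, 3.02 and 3.32. Calb1 was higher in 3 of 4, at 5.10, 4.28, 1.97 and 1.46 against 3.44, 3.85, 1.28 and 1.80.

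None of the 3 genes passed the test. The edgeR differences were −0.58 ± 0.43 for Nrgn (adjusted p = 0.63), −0.64 ± 0.43 for Calm3 (0.565) and 0.95 ± 0.56 for Calb1 (0.456). edgeR called 0 of 8 members and 0.041% of genes (10); with the animal as a replicate block it called 0 genes and 0 members, with 1.45 ± 0.42 for Calb1 (adjusted p = 0.571). DESeq2 (3.58% of genes) and limma (2.82%) called 0 members, and 0 members had an unadjusted p below 0.05. Pcp4, like Calb1, was higher in FOS+ nuclei in 3 of the 4 mice that gave both groups: mice 24 and 25 had it at 8.71 and 9.15 in FOS+ and 7.69 and 8.15 in FOS− nuclei, and mice 26 and 27 had 4.58 and 5.03 against 6.01 and 3.40.

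After the visit to the different environment (A>C), FOS+ and FOS− sums came from different mice, 2 of each. Nrgn was 3.24 and 1.79 in FOS+ against 3.81 and 3.42 in FOS− nuclei, and Calm3 3.26 and 1.12 against 2.59 and 3.85. The differences were −0.15 ± 0.74 for Nrgn and −0.82 ± 0.75 for Calm3, both with intervals across 0. edgeR called 0% of genes, none of the members and 1089 genes at an unadjusted p below 0.05, while DESeq2 and limma called 4.63% and 0.761% of genes and none of the members.

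In CA1, Calm3 was higher in FOS+ nuclei in 3 of 3 mice that gave both groups, at 4.60, 5.20 and 5.96 against 2.62, 3.14 and 4.86 in mice 10, 2 and 4. Calm2 was higher in 3 of 3 as well, by 0.07 to 0.80. HC nuclei had Calm3 at 4.51, 6.05 and 8.54, which overlaps the FOS+ nuclei, and 2 of the FOS+ and 2 of the FOS− sums held 5 nuclei or fewer. The edgeR differences were 1.16 ± 0.75 for Calm3 and 0.77 ± 0.65 for Calm2. edgeR called 0% of 14507 genes (629 at an unadjusted p below 0.05) and 0 of the 7 members tested, DESeq2 1.56% of genes and limma 0%, with 0 members each.

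In VIP nuclei the pair of buffers lay in opposite directions in both mice that gave FOS+ and FOS− nuclei from the PROX1+CTIP2− gate. Calb1 was 3.49 and 2.51 in FOS+ against 0.89 and 1.27 in FOS− nuclei of mice 4 and 5, with counts in 5 of 13 and 8 of 14 against 2 of 10 and 2 of 5 nuclei. Calb2 was 2.28 and 2.67 against 4.02 and 4.51, with counts in 4 of 13 and 5 of 14 against 7 of 10 and 3 of 5 nuclei. HC mice 4 and 5 had 3.88 and 4.78 for Calb2, both above the FOS+ values, and 2.58 and 0.64 for Calb1, one above and one below the FOS− values of 1 h mice 4 and 5.

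These VIP values did not pass the test. Calb1 differed by 4.22 ± 1.90 (adjusted p = 0.885) with sums of 664 and 99.4 CPM in FOS+ and 37.9, 21.7 and 1.54 CPM in FOS− nuclei, and Calb2 by −1.01 ± 2.06. In FOS+ nuclei of mouse 4, a single nucleus held 4247 of the 7096 Calb1 counts (59.9%), and in those of mouse 5 a single nucleus held 583 of 821. FOS− nuclei of mouse 4 had 117 Calb1 counts, 115 of them in a single nucleus, and those of mouse 5 had 3 in all. The Calb1 level of HC mouse 5 also rests on 3 counts, in a single nucleus. Without mouse 4 the differences were 2.29 ± 3.04 for Calb1 and 0.13 ± 3.09 for Calb2. Without mouse 5 they were 4.50 ± 2.18 and −1.73 ± 3.38, and without the 2 nuclei of mouse 2 they were 5.00 ± 2.34 and −1.61 ± 0.79. The lowest edgeR adjusted p over these 3 omissions was 0.874 for each gene. edgeR called 0% of 15002 genes (850 at an unadjusted p below 0.05) and 0 of the 7 members tested, DESeq2 2.91% of genes and limma 0%, with 0 members each.

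The FOS difference itself was compared between cell types in a joint fit of 21903 genes. For DG against CA1, DG against VIP and CA1 against VIP, edgeR called 0.00457%, 0.00457% and 0% of genes and no member, limma 0% of genes and no member, and DESeq2 1.55%, 2.26% and 2.4% of genes. DESeq2 called Calb2 alone in the first 2, which rests on a single FOS+ DG nucleus. For Calb1 the estimates were 0.07 ± 3.32, −4.19 ± 3.63 and −4.26 ± 2.53. The intervals are wide, and differences between the cell types of several log2 units in either direction remained possible.

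Partners of the members were read from 3 lists: 38 other EF-hand buffers and sensors, 5 further calmodulin-binding proteins (Pcp4l1, Gap43, Basp1, Marcks and Marcksl1) and 25 calmodulin-dependent enzymes and pumps. edgeR called none of the 5 calmodulin-binding genes in any of the 15 comparisons, with at most 2 at an unadjusted p below 0.05, while DESeq2 called 2 and limma 1 of them in PROX1+CTIP2+ against PROX1+CTIP2− and DESeq2 1 in PROX1+CTIP2− against PROX1−CTIP2+. In the 5 FOS comparisons within DG, CA1 and VIP, edgeR called no gene of the lists. There it had 1 to 5 EF-hand genes and 0 to 4 enzymes at an unadjusted p below 0.05, DESeq2 called 0 to 3 and 0 to 1, and limma called genes in A>A alone, 3 EF-hand genes and 1 enzyme.

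In PROX1+CTIP2+ against PROX1+CTIP2− nuclei, edgeR called 4 of 25 enzymes higher and 1 lower, and 0 of 32 tested EF-hand genes (7 at an unadjusted p below 0.05), against 0.919% of all genes. DESeq2, which called 12.3% of all genes, called 12 of 25 enzymes and 5 of 32 EF-hand genes, and limma, which called 6.32%, called 9 of 23 and 4 of 25. Camk2b, a subunit of the kinase CaMKII, had 926 to 1526 CPM against 191 to 261 (2.34 ± 0.31, adjusted p = 0.009), and Ppp3ca, the catalytic subunit of calcineurin, 1598 to 2177 against 111 to 211 (3.35 ± 0.46, 0.010). Adcy1, an adenylyl cyclase activated by calmodulin, had 920 to 2112 against 58.8 to 265 CPM (3.37 ± 0.61, 0.0318).

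The remaining 2 genes were at or near 0 in a gate. Itpka, a kinase of inositol trisphosphate, had 171 to 2349 counts in PROX1+CTIP2+ sums and 1, 0, 0 and 0 counts in PROX1+CTIP2− sums, and it was also the enzyme called lower in PROX1+CTIP2− than in PROX1−CTIP2+ nuclei (adjusted p = 0.0243), a call lost without NE mouse 4 or 5 or HC mouse 3 or 4. Camk1g, a kinase of the CaMKI family, had 27 to 1112 counts in PROX1+CTIP2− sums and none in PROX1+CTIP2+ sums, at least 7.55-fold higher with the floor of 3 counts. The list medians were 1.01 for the enzymes, 0.18 for the EF-hand genes and −0.79 for the calmodulin-binding genes, against −0.07 over all genes. Of the 5 calls between PROX1+CTIP2+ and PROX1+CTIP2−, only that of Camk2b held whichever animal was left out. Adcy1 was lost without any animal but NE mouse 5, Ppp3ca without HC mouse 4 (adjusted p = 0.0543), Itpka without NE mouse 4 (0.0541), and Camk1g without NE mouse 3 or 4 or HC mouse 4, 6 or 7. In limma Itpka (0.0573) and Camk1g (0.116) did not pass.

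Against HC, edgeR called 3 list genes in DG, all higher, in FOS+ nuclei at 1 h or at 4 h. It called none in FOS− nuclei at 1 h or in the 5 h nuclei. Of 35 EF-hand genes and 25 enzymes tested, edgeR called 1 and 0 in FOS+ nuclei at 1 h, where 0.27% of all genes were called, and 2 and 1 at 4 h, where 0.246% were. DESeq2 called 5, 3, 5 and 3 of the EF-hand genes for FOS+ and FOS− at 1 h, 4 h and 5 h. It called 4, 0, 1 and 2 of the enzymes, and 7.28%, 2.52%, 4.14% and 8.14% of all genes. In limma these were 1, 0, 2 and 3 of 22 and 2, 0, 1 and 3 of 20. It called 3.99%, 0.0525%, 3.86% and 11.1% of all genes. Hpcal4, a relative of hippocalcin, had 2220 CPM in FOS+ nuclei at 1 h and 1912 and 1892 CPM at 4 h, against 577 and 343 CPM in HC and 373 CPM in FOS− nuclei at 1 h. The differences were 2.27 ± 0.44 (adjusted p = 0.023) and 2.05 ± 0.39 (0.0211). Ncs1, neuronal calcium sensor 1, had 591 and 775 CPM at 4 h against 116 and 92.4 CPM in HC (2.72 ± 0.54, 0.0352), and Camkk1, the kinase that activates CaMKI and CaMKIV, 926 and 625 against 108 and 176 CPM (2.45 ± 0.43, 0.0128). At 5 h the sums were 704 to 1044 CPM for Hpcal4, 96.6 to 324 CPM for Ncs1 and 107 to 341 CPM for Camkk1. For Ncs1 and Camkk1 these ranges overlap HC.

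At 4 h the median over all genes was 0.23, and the 3 differences exceed it by more than 1.8. The calls at 4 h were lost without HC mouse 7 for all 3 (adjusted p = 0.479, 0.499 and 0.0906 for Hpcal4, Ncs1 and Camkk1), without 4 h mouse 17 for all 3, without 4 h mouse 21 for Hpcal4 and Ncs1, and without HC mouse 6 for Ncs1 and Camkk1. The 1 h call of Hpcal4 was lost without HC mouse 7 (0.359). With DESeq2's size factors in edgeR the adjusted p were 0.0635 at 1 h and 0.0716, 0.122 and 0.0548 at 4 h. At stricter thresholds on reads and genes Hpcal4 (0.152 at 1 h, 0.514 at 4 h) and Ncs1 (0.587) did not pass, nor with animals split by date (0.166, 0.140 and 0.0507), and Camkk1 did not pass in limma (0.0612).

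Genes with a pattern like that of a member were sought over 26 means per cell type and animal of FOS− nuclei in the first cohort, among 10256 genes. The points share libraries and differ in depth, so the correlations are a description. Pde1b (Pearson r = 0.74), a calmodulin-dependent phosphodiesterase, and Dgkh (0.70) were nearest to Calb1, and Rgs12 (0.93), Vip (0.90) and Cbln2 (0.84) to Calb2. Ppp3ca (0.73) and Ncdn (0.72) were nearest to Calm2, Wasf1 (0.83) and Icam5 (0.81) to Nrgn, Ntng1 (0.74) and Sema5a (0.73) to Pcp4, and Dock4 (0.78) and Dock9 (0.77) to Hpca. For Pvalb the nearest were 2700068H02Rik (0.89), Ubl3 (0.85) and Mvk (0.84), and for Calm3 Pvt1 (0.74). Among the members, Calb1 and Pcp4 had r = 0.63, Nrgn and Hpca 0.63, Nrgn and Calm2 0.52, Calb2 and Hpca −0.55, and Calb2 and Nrgn −0.51.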

How the data were processed

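Single nuclei were sorted into plates by the authors, made into SmartSeq2 libraries and sequenced as single-end 50-base reads. The paper's methods state trimming with Solexa-QA++, after which the authors quantified reads with RSEM over Bowtie against mm10; the submitters' processing notes name the same tools. The release of the Ensembl annotation is not given in the sources used here. The authors deposited RSEM expected counts, which were rounded to whole numbers here, and log2 values of TPM plus 1. In these tables, 30 and 23 rows with a missing value were left out.

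The authors' thresholds were applied: at least 100000 aligned reads, and at least 4000 genes whose log2(TPM+1) exceeds 1. They left 818 nuclei. By the authors' rule, FOS− nuclei of the first cohort with Arc above 2.5 were left out, so 783 were used. The rule removed 35 nuclei here, over all predicted cell types in HC and at 1 h. The paper reports a smaller number, counted over CA1, DG and VIP nuclei alone. No doublet caller was run on the sorted nuclei. An animal was a cohort, exposure and mouse number from the labels, and mouse numbers on different dates may join animals. Counts were summed over the nuclei of an animal and group (at least 2 nuclei) and tested with edgeR 4.0.16 (TMM, filterByExpr, glmQLFit and glmQLFTest, Benjamini-Hochberg over all genes tested, threshold 0.05) in R 4.3.3. With 1 sum in a group, as for both 1 h DG groups, that sum is assumed to vary like the others. Standard errors were taken from the fold change and the F statistic. The bounds given for differences are 95% intervals by a normal approximation from these errors. They are narrower than the F test implies, so a bound can exclude 0 where the test does not pass. Calb1 at 5 h against HC, for example, had bounds of −3.13 to −0.01 and an unadjusted edgeR p of 0.0627. Detection is a count above 0. Intervals and floors of 3 counts cover counting error only, since reads carry no molecular identifiers. Summaries were made in Python 3.11.15.

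By the labels, some mice gave both FOS+ and FOS− sums: 3 for CA1, 2 for VIP and 4 for A>A. Paired sums, with group means subtracted, correlated at 0.05 in CA1 (0.04 to 0.07), 0.016 in VIP and 0.049 in A>A (0.035 to 0.072).

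The members and lists were chosen with earlier results of these data known. Named were all 8 members, list genes past the threshold (at most the 5 with the smallest adjusted p), and the 3 genes nearest to each member by Pearson r, of which some are printed. One gene of the EF-hand list is not reported here and was left out of its counts. The alternatives were DESeq2 1.42.0, its size factors in edgeR, limma 3.58.1 on mean log2(TPM+1), no filter on low counts, stricter thresholds (200000 reads and 5000 genes), sums of at least 5 nuclei, no Arc filter, animals split by date, the animal as a replicate block, no exposure term, and leaving out each animal. VIP nuclei of the PROX1+CTIP2− gate alone were an alternative chosen later, with the values known. The edgeR test was tried on simulated counts for a single comparison in each of the DG, CA1 and gate fits. The other comparisons, the VIP and joint fits, DESeq2 and limma were not tried in this way. Sequences are from GRCm38 with GENCODE vM21.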

Additional observations from a re-analysis of the deposited data

Results flagged for a closer look

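Groups of 4 to 10 animals were searched for an animal far from the others in the mean level or the share of nuclei with a count, and 19 of 122 such values stood out. The measure was the gap to the nearest other animal over the range of the group, set against Dixon's 95% critical value, which about 1 in 20 groups of normally distributed values exceed by chance. Most of the 19 are genes at or near 0 in a group, where any count in an animal stands apart and that rate need not hold.

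Calb2 reached 0.504 (10.0% of nuclei) in 5 h mouse 22, 0.205 (4.55% of nuclei) in FOS+ nuclei of A>A mouse 15, 0.301 in FOS− nuclei of A>A mouse 25 and 1.53 in Sub nuclei of HC mouse 4. Pvalb reached 0.210 (4.76% of nuclei) in 5 h mouse 9, 0.472 (25.0% of nuclei) in CA1 nuclei of HC mouse 4, and 0.586 (7.69% of nuclei) in the PROX1+CTIP2− gate of HC mouse 5.

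Among abundant members, Calm2 had a count in 95.5% of nuclei of 5 h mouse 8 and 89.5% of VIP nuclei of NE mouse 5, where the other animals of the group were at or close to all nuclei. Its level was 11.4 in CA1 nuclei of HC mouse 3 and 7.82 in the PROX1+CTIP2− gate of HC mouse 4. Pcp4 was found in 52.2% of FOS− nuclei of A>A mouse 27 and stood at 9.15 in VIP nuclei of NE mouse 2, which gave the 2 nuclei without a Vip count described above. Hpca was found in 78.6% of PROX1−CTIP2− nuclei of HC mouse 4.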

How the results depend on the processing

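Of 1472 recomputed member differences, 1439 kept their side of the threshold, 24 passed it newly and 9 lost it; 110 changed sign, none by more than its SE on both sides, and 0 of 32 for the 2 calls.

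For members called, PROX1+CTIP2+ against PROX1+CTIP2− (2) gave 7 with DESeq2, 5 with limma, 1 at stricter thresholds, 3 without the Arc filter and 0 to 2 over animals left out. Against PROX1−CTIP2+, PROX1+CTIP2+ (0) gave 2 with DESeq2, 2 with limma and 1 without the exposure term, and PROX1+CTIP2− (0) gave 3 with DESeq2 and 3 with limma. At 5 h against HC (0), DESeq2 and limma gave 1 each, and DESeq2 gave 1 for each FOS difference of DG against CA1 and VIP.

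For genes called, DESeq2 gave 1057 for FOS+ against FOS− at 1 h in DG (11 in edgeR), 1776 for FOS+ at 1 h (66), 616 for FOS− at 1 h (1), 1011 at 4 h (60) and 1987 at 5 h (64) against HC, 874 in A>A (10), 1129 in A>C (0), 227 in CA1 (0), 437 in VIP (0), 339, 496 and 525 for the FOS differences of DG against CA1, DG against VIP and CA1 against VIP (1, 1 and 0), 1313 and 1287 for PROX1+CTIP2+ and PROX1+CTIP2− against PROX1−CTIP2+ (28 and 6) and 2371 for PROX1+CTIP2+ against PROX1+CTIP2− (177). In the same order limma gave 91, 456, 6, 442, 1269, 323 and 87 in DG, 0 and 0 for the first 2 FOS differences, and 202, 295 and 850 for the gates. Stricter thresholds gave 1, 41, 0, 18, 13 and 3 from FOS+ against FOS− at 1 h to A>A, 0 for the FOS difference of DG against VIP, and 16 and 11 for the gates against PROX1−CTIP2+. Animals split by date gave 5, 43, 0 and 36 for the 1 h and 5 h comparisons and 18 in A>A. DESeq2's size factors in edgeR gave 7 for FOS+ against FOS− at 1 h, 38 at 4 h, and 0 for the FOS differences of DG against CA1 and VIP. Without the Arc filter 41 were called at 5 h and 22 for PROX1+CTIP2− against PROX1−CTIP2+, which had 22 without the filter on low counts and 21 without the exposure term; the FOS difference of DG against VIP had 0 without the filter on low counts. The replicate block gave 0 genes in A>A and changed no other call. Over animals left out the counts ran from 21 to 168 for FOS+ and 0 to 61 for FOS− at 1 h against HC, 17 to 180 at 4 h, 20 to 204 at 5 h, 1 to 8 in A>A, 0 to 1 in A>C, and 5 to 13, 0 to 20 and 49 to 151 for the gates in the order above. The causes of these changes were not tested.

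Of the levels, only Pvalb in Ivy moved by more than the spread between animals, to 0.79 as a mean over nuclei (567 others did not). Thinning to 100000 counts moved 18 of 64 shares of nuclei by more than that spread: Calb1 in CA1 to 36.2%; Calb2 in Ivy to 5.08%; Calm2 to 100.0% in CA1, 99.9% in CA3, 98.7% in DG, 94.6% in Ivy, 98.2% in Pvalb, 98.4% in Sub and 99.6% in Th; Calm3 to 67.2% in CA3, 57.4% in Ivy and 36.6% in Th; Nrgn to 66.0% in CA3 and 71.0% in DG; Hpca to 81.5% in CA1 and 58.0% in Sub; Pcp4 to 30.6% in Pvalb and 99.99% in Th. For Calm2 in the types listed and for Pcp4 in Th, every animal was at 100% before thinning. The spread there was 0, so a fall of any size counted as moved. Depth limits what shallow groups such as VIP can show, and groups of 2 animals limit most DG comparisons.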
